A study of Mus musculus with 24 samples.

Results

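The 9 genes described here encode proteins by which megakaryocytes and platelets are known: the alpha-granule chemokines Pf4 and Ppbp, the integrin pair Itga2b and Itgb3, the GPIb-IX glycoproteins Gp1ba, Gp1bb and Gp9, the collagen receptor Gp6 and the adhesive protein Vwf. They were chosen by name from knowledge of the lineage, with earlier results of these data known. Gene identifiers were matched to symbols, and the members are 9 of 54752 genes in the expression table. All 9 had a TPM (transcript abundance scaled to transcript length and to the total of the library) above 1 in at least 1 library, so all are among the 12373 genes tested. No member was listed at 0 in any of the 24 libraries, although Gp6 exceeded 1 TPM in only 15 libraries, Gp1ba in 16 and Gp1bb in 23. In GENCODE M21 on GRCm38 all 9 are protein-coding genes. On the plus strand lie Pf4 at chr5:90772435-90773383, Ppbp at chr5:90768518-90770063, Itgb3 at chr11:104608000-104670476, Gp1ba at chr11:70639122-70642036, Gp9 at chr6:87778072-87779768 and Vwf at chr6:125546774-125686679. On the minus strand lie Itga2b at chr11:102453297-102470122, Gp1bb at chr16:18620317-18622403 and Gp6 at chr7:4363965-4397744.

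RNA of cryopreserved bone marrow cells was sequenced in 24 male C57BL/6 mice, with 1 library per mouse, to ask how spaceflight and the loss of Nrf2, a transcription factor of the oxidative stress response encoded by Nfe2l2, bear on the marrow. GC-WT mice were wild-type ground controls, FL-WT mice were wild-type mice that spent 31 days in space, and GC-KO and FL-KO mice were the Nrf2 KO mice of the ground and of the flight, with 6 mice in each group. Flight mice were 8 weeks old when sent to the launch site 3 weeks before launch and were sampled 2 days after landing. The age of the ground mice is not given separately in the sources used here.

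All mice were housed singly, and the knockout is carried in every tissue, so that loss of Nrf2 in megakaryocytes and in other cells of the body cannot be told apart. Ground and flight mice were sampled at different places, so that the flight and the place of sampling cannot be told apart either. Each flight group also includes launch, landing and the return to gravity before sampling.

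Megakaryocytes are large polyploid cells of the marrow that shed platelets into its sinusoids. Their maturation depends on GATA1 with its partner FOG1, on the ETS factor FLI1 and on NF-E2, and it brings on the surface receptors and the granule proteins that platelets carry into the blood. On the platelet, GPIb-IX binds von Willebrand factor on the injured vessel wall, GPVI binds collagen, and the integrin alphaIIb-beta3 binds fibrinogen to join platelets together.

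As GATA1 and FLI1 act on this gene class, promoter windows of the members were read from RefSeq on GRCm38.p6. Each covered 250 bases before to 50 bases after a transcript start. That start lies at chr11:102469883 for Itga2b, inside the gene span given above, so most of the Itga2b window does too. Of the 9 members, 7 had such a window, and Itgb3 and Vwf had none. The windows were searched on both strands for the GATA motifs AGATAA and TGATAA and for the ETS core GGAAG. At least 1 GATA motif occurred in 3 of the 7 windows, and in 18.5% of 32544 promoter windows of the same length. The ETS core occurred in 7 of 7 windows, and in 71.3% of all windows. Both kinds occurred together in 3 of 7 windows, and in 12.3% of all windows. The 3 windows with both kinds, and that of Itga2b, which held 4 ETS cores, are printed 5′ to 3′ on the strand of the gene, with the motif letters in capitals. Pf4 lies at chr5:90772185-90772484 on the plus strand, Gp1ba at chr11:70638872-70639171 on the plus strand, Gp6 at chr7:4397695-4397994 on the minus strand and Itga2b at chr11:102469834-102470133 on the minus strand.
Pf4: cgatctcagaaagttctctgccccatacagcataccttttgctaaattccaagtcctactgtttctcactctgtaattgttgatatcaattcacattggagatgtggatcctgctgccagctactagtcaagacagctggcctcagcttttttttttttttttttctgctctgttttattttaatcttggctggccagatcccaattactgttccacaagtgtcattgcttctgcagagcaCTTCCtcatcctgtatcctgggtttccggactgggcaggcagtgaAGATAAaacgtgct
Gp1ba: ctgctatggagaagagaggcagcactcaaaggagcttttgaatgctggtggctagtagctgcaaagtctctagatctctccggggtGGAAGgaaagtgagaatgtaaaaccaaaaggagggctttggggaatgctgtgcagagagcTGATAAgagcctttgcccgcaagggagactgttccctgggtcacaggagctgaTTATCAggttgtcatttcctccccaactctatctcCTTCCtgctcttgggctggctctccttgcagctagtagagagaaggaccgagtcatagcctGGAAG
Gp6: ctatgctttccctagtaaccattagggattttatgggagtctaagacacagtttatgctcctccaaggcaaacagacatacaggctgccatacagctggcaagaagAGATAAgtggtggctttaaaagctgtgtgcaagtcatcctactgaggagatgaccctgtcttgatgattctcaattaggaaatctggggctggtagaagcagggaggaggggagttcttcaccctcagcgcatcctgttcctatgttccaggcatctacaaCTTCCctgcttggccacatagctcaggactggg
Itga2b: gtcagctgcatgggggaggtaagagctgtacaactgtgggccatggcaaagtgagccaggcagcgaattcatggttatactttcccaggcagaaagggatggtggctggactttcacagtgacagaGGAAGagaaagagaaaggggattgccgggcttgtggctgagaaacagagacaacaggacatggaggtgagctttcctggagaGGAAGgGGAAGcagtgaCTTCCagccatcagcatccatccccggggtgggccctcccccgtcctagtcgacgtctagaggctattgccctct
In these windows a match is a string of letters only, and binding was not measured here. The Gp1ba window held TGATAA on both strands, Pf4 and Gp6 held AGATAA, and no motif of 1 family overlapped a motif of the other.

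The table holds TPM values alone, so the depth of each library is unknown and no counting error can be given. TPM is scaled to transcript length, which allows levels to be compared between genes, and it sums to the same total in each library. Between 35.4% and 59.6% of that sum came from a few small structural RNAs, and 8748 to 11413 genes per library exceeded 1 TPM. Nfe2l2, the targeted gene, ranged from 17.1 to 26.1 TPM in GC-WT and from 11.4 to 27.3 in FL-WT, against 3.6 to 7.18 in GC-KO and 2.22 to 4.31 in FL-KO, without overlap between the genotypes. Most genes had lower TPM after flight and without Nrf2: over all tested genes the median log2 fold change with flight was -0.24 in wild-type and -0.29 in Nrf2 KO mice (FL-WT vs. GC-WT and, likewise, FL-KO vs. GC-KO), and without Nrf2 it was -0.22 on the ground (GC-KO vs. GC-WT) and -0.25 after flight (FL-KO vs. FL-WT). Changes of the members are therefore also given relative to these medians.

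A few mice stood apart over the whole set. Among FL-KO mice, mouse 09 had the highest value of 9 of 9 members and mouse 01 the lowest of 9 of 9. Among GC-WT mice, mouse 06 had the highest value of 7 members and mouse 10 the lowest of 8. In FL-WT, mouse 03 was lowest in 6 members and mouse 10 highest in 5. Counts of members below are given with and without these mice where they turned on 1 of them. The sum of the 9 members shows the same spread, from 98.6 to 328 TPM in GC-WT and 52.3 to 173 in FL-WT, against 109 to 198 in GC-KO and 34.1 to 149 in FL-KO.

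**Figure D1:**
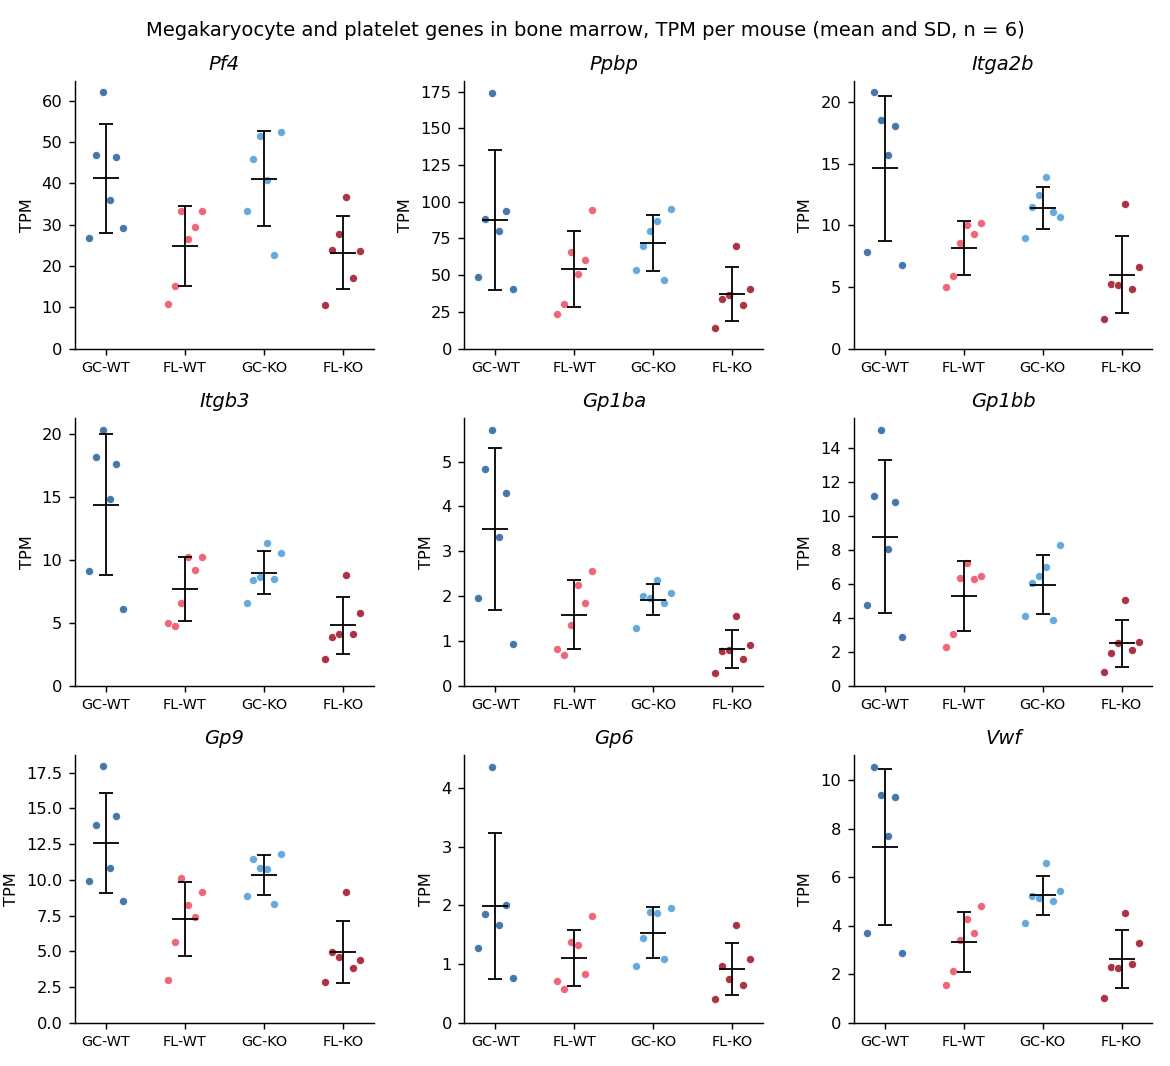
TPM of each member in every mouse, with a panel and a linear axis from 0 for each gene, 6 points in each of the 4 groups, a horizontal line at the group mean and bars of 1 SD. The mean of the flight mice lies below that of the ground mice of their genotype in every gene, with overlap, and 1 FL-KO mouse (09) stands above the other 5.

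The levels lay in a similar order in the 4 groups. Ppbp was above Pf4 in 6 of 6 mice of each group, and the ratio of Ppbp to Pf4 was 2.03 ± 0.469 in GC-WT and 2.16 ± 0.342 in FL-WT, against 1.78 ± 0.26 in GC-KO and 1.56 ± 0.25 in FL-KO (SD, n = 6). Pf4 exceeded Itga2b without overlap in GC-WT, FL-WT and GC-KO, and in FL-KO the ranges of these neighbours overlapped. Itga2b, Itgb3 and Gp9 followed with means between 4.8 and 14.6 TPM, and the order of these 3 crossed from mouse to mouse. The ratio of Itga2b to Itgb3, whose products pair 1 to 1 in the integrin, was 1.02 ± 0.111 in GC-WT and 1.09 ± 0.142 in FL-WT, against 1.29 ± 0.154 in GC-KO and 1.23 ± 0.0958 in FL-KO. Gp1ba and Gp6 had the lowest means, and their order was the reverse in FL-KO of that in the other groups.

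The first question was how flight bore on these genes in wild-type marrow and in marrow without Nrf2. In FL-WT vs. GC-WT, 7 of 9 members fell at a Benjamini-Hochberg adjusted p under 0.1 in limma on log2(TPM + 1), the scale of all fold changes given here, which understates changes of low genes. Of all 12373 tested genes, 39.0% fell by this rule. No member passed the added limit of a 2-fold change (0 of 9 in limma), and 0.938% of all genes did. At an unadjusted p under 0.05 in limma, 7 of 9 were lower, beside 41.7% of all genes. By the exact test adjusted over 36 tests, 1 of 9 passed. The counts at 2-fold rest on the added 1. With 0.1 in its place, 2 members (Gp1ba and Vwf) were called in wild-type and 6 in Nrf2 KO mice. The median of all tested genes was then also lower, at -0.33 and -0.42. The share of all genes called is not given for that setting. The plain means of FL-WT were 0.452 of those of GC-WT for Gp1ba and 0.458 for Vwf. In FL-KO vs. GC-KO, 9 of 9 members fell, beside 53.1% of all genes, and 2 of 9 fell at least 2-fold, beside 2.13% of all genes. The exact permutation test of the rank sum gave 8 of 9 members an adjusted p under 0.1 in that comparison, Pf4 being the exception. The exact test was adjusted over the 36 tests of the members alone. No share of all genes can therefore be set beside its counts in any comparison.

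No member separated the flight from the ground mice completely (0 of 9 in either comparison), whereas 4.19% of all genes were lower without overlap with flight in wild-type mice and 18.4% in Nrf2 KO mice. On the log2 scale, the members' median change was -0.74 for wild-type and -0.86 for Nrf2 KO mice, lower than that of all genes by 0.49 and 0.57. The 9 members lay between the lowest 1.89% (Vwf) and the lowest 18.8% (Gp6) of all fold changes in wild-type mice, and between 1.73% (Gp1bb) and 30.8% (Gp6) in Nrf2 KO mice. In the RNA of bulk marrow, fewer megakaryocytes and less of their RNA per cell cannot be told apart. By flow cytometry of cryopreserved marrow, the paper reports no substantial change with flight in megakaryocytes marked by both chains of the platelet integrin. Those were shares of live cells. In the spleen the paper reports a larger share of these megakaryocytes in both flight groups. It also reports larger platelets after flight, and more vWF RNA in thymus and brown fat of FL-KO than of GC-KO mice. The relation of these findings to the marrow RNA values was not tested.

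With median-of-ratios scaling, which moves the median of all genes to 0.03 and -0.0012, all 9 members were still lower in both flight comparisons, but 2 passed in wild-type mice (Gp1ba and Vwf) and 6 in Nrf2 KO mice, none of them at 2-fold. Removing the trends of each library with GC content and transcript length left 2 and 3 members, and quantile normalization 1 and 3. One mouse also decided some counts. The number of members that passed in FL-WT vs. GC-WT was 4 without GC-WT mouse 06, FL-WT mouse 03 or FL-WT mouse 05. At 2-fold, 1 member was called in that comparison without GC-WT mouse 03 or 10. In FL-KO vs. GC-KO the 2-fold calls were 5 without FL-KO mouse 09 (Ppbp, Itga2b, Itgb3, Gp1bb and Gp9), 1 without GC-KO mouse 04 or 09, and 0 without GC-KO mouse 12 or FL-KO mouse 01.

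**Figure D2:**
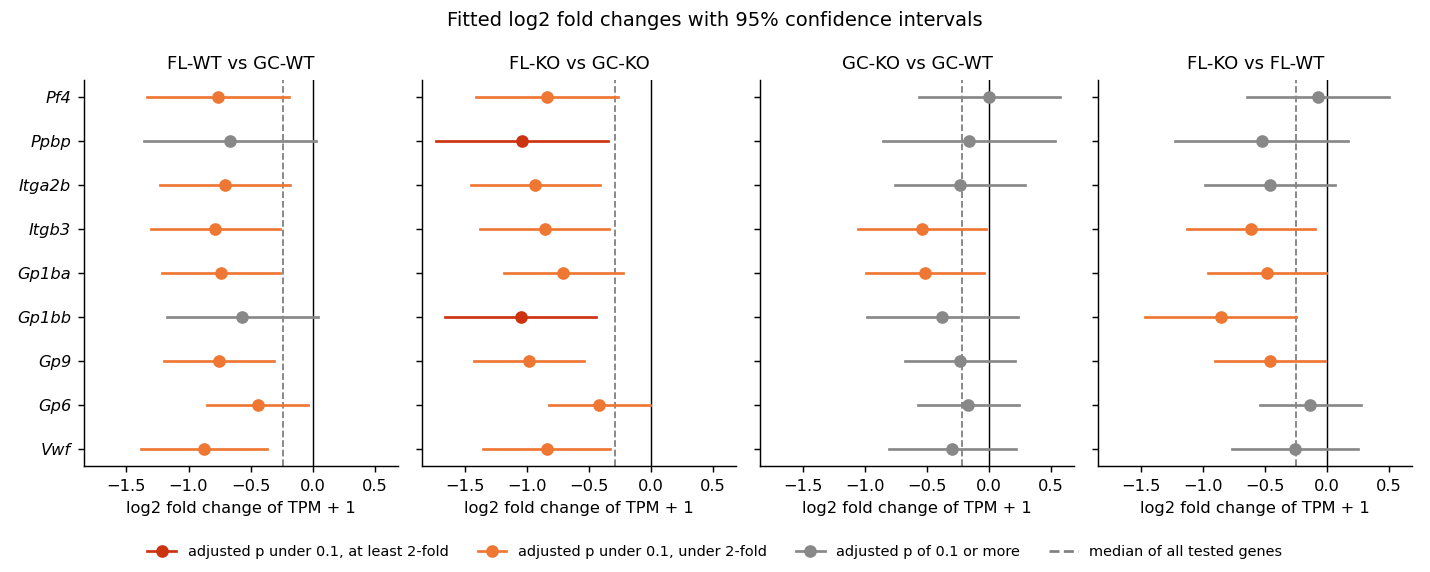
Log2 fold change on the log2(TPM + 1) scale of each member in the 4 comparisons, with 95% confidence intervals from limma, coloured by whether the gene passed, and the median of all tested genes as a dashed line. In both flight comparisons all 9 members lie below that line, and in GC-KO vs. GC-WT they scatter around it.

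Pf4, platelet factor 4, is a chemokine of the alpha-granules that binds heparin. In wild-type mice its TPM had a lowest, median and highest value of 26.7, 41.1 and 62.1 in GC-WT and of 10.7, 27.9 and 33.4 in FL-WT. In Nrf2 KO mice these were 22.7, 43.3 and 52.5 in GC-KO and 10.4, 23.7 and 36.6 in FL-KO. The groups overlapped, with 3 of 6 FL-WT mice below the lowest GC-WT mouse and 2 of 6 FL-KO mice below the lowest GC-KO mouse. The log2 fold change was -0.76 ± 0.28 (SE) in FL-WT vs. GC-WT (limma adjusted p = 0.0417, exact permutation p = 0.0584) and -0.84 ± 0.28 for FL-KO vs. GC-KO (limma adjusted p = 0.0198, exact permutation p = 0.0411).

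Ppbp, the neighbour of Pf4 on chromosome 5, encodes the precursor of another abundant granule chemokine. Its lowest, median and highest TPM were 40.7, 84.1 and 174 in GC-WT and 23.3, 55.6 and 94.7 in FL-WT. The values were 46.6, 75 and 95.2 in GC-KO and 13.8, 35 and 69.7 in FL-KO. The Nrf2 KO groups were nearly apart, with 5 of 6 FL-KO mice below every GC-KO mouse and mouse 09 the exception, while the wild-type groups overlapped widely. In FL-KO vs. GC-KO, Ppbp fell by more than 2-fold (log2 fold change -1.03 ± 0.34, limma adjusted p = 0.0182, exact permutation p = 0.00866). In FL-WT vs. GC-WT the log2 fold change of -0.67 ± 0.34 did not pass the test (limma adjusted p = 0.129), and its 95% interval ran from -1.36 to 0.02.

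Itga2b encodes the alphaIIb chain (CD41), which appears early in the megakaryocyte lineage and on some progenitors. Lowest, median and highest TPM were 6.76, 16.9 and 20.8 in GC-WT and 4.96, 8.94 and 10.2 in FL-WT. They were 8.95, 11.3 and 13.9 in GC-KO and 2.4, 5.21 and 11.8 in FL-KO. Of the FL-KO mice, 5 lay below every GC-KO mouse and mouse 09 lay among them. Itga2b fell in both comparisons, by a log2 fold change of -0.70 ± 0.26 in FL-WT vs. GC-WT (limma adjusted p = 0.0404, exact permutation p = 0.132) and -0.93 ± 0.26 for FL-KO vs. GC-KO (limma adjusted p = 0.00656, exact permutation p = 0.026).

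Itgb3, the beta3 chain (CD61), is also part of the vitronectin receptor of osteoclasts and endothelium. Its TPM ran over 6.1, 16.2 and 20.4 in GC-WT and 4.75, 7.88 and 10.3 in FL-WT as lowest, median and highest. In Nrf2 KO mice it ran over 6.61, 8.54 and 11.3 in GC-KO and 2.1, 4.13 and 8.79 in FL-KO. The lowest values were again those of FL-KO, 5 of whose 6 mice lay below every GC-KO mouse. The change was -0.78 ± 0.25 in FL-WT vs. GC-WT (limma adjusted p = 0.0241, exact permutation p = 0.0931) and -0.86 ± 0.25 for FL-KO vs. GC-KO (limma adjusted p = 0.0101, exact permutation p = 0.026) as log2 fold changes.

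Gp1ba encodes the chain of the GPIb-IX complex that binds von Willebrand factor. It was low throughout, with 0.92, 3.81 and 5.7 TPM in GC-WT and 0.69, 1.6 and 2.56 in FL-WT as lowest, median and highest. The values were 1.29, 1.99 and 2.36 in GC-KO and 0.29, 0.78 and 1.56 in FL-KO. Only 1 FL-KO mouse reached the GC-KO range. The log2 fold changes were -0.74 ± 0.23 in FL-WT vs. GC-WT (limma adjusted p = 0.0218, exact permutation p = 0.0649) and -0.70 ± 0.23 for FL-KO vs. GC-KO (limma adjusted p = 0.0192, exact permutation p = 0.00433). At these levels, around 1 to 4 TPM, the added 1 in log2(TPM + 1) makes the fold smaller than that of the plain means, 1.92 against 0.82 TPM in Nrf2 KO mice.

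Gp1bb encodes the beta chain, which is disulfide-linked to GPIb alpha. Its value is uncertain, since the gene shares 1902 bases of the same strand with Sept5, which had a mean of 15.8 TPM, and reads of the shared stretch were divided by estimation. Lowest, median and highest TPM were 2.85, 9.43 and 15 in GC-WT and 2.26, 6.31 and 7.25 in FL-WT. They were 3.85, 6.25 and 8.31 in GC-KO and 0.82, 2.31 and 5.02 in FL-KO. The FL-KO mice stood lowest, 5 of 6 below every GC-KO mouse. Gp1bb fell in FL-KO vs. GC-KO (log2 fold change -1.05 ± 0.30, limma adjusted p = 0.00784, exact permutation p = 0.00866), while the value in FL-WT vs. GC-WT, -0.57 ± 0.30, did not pass (limma adjusted p = 0.141).

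Gp9 encodes the small subunit GPIX, without which the complex does not reach the platelet surface in quantity. It had 8.51, 12.3 and 18 TPM in GC-WT and 3.01, 7.82 and 10.2 in FL-WT as lowest, median and highest. In Nrf2 KO mice it had 8.33, 10.8 and 11.8 in GC-KO and 2.86, 4.51 and 9.12 in FL-KO. In wild-type mice Gp9 came closest of the members to separating the groups, with 4 of 6 FL-WT mice below every GC-WT mouse, and 5 of 6 FL-KO mice lay below every GC-KO mouse. Gp9 had the smallest adjusted p of the members in FL-KO vs. GC-KO, 0.0013 by limma, with a log2 fold change of -0.98 ± 0.21 (exact permutation p = 0.00866). In FL-WT vs. GC-WT it changed by -0.75 ± 0.21 (limma adjusted p = 0.013), and it was the 1 member whose exact permutation p of 0.0152 held after adjustment over 36 tests (adjusted p = 0.0912).

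Gp6 encodes GPVI, the platelet receptor for collagen. Its lowest, median and highest TPM were 0.76, 1.76 and 4.36 in GC-WT and 0.57, 1.08 and 1.82 in FL-WT. In GC-KO they were 0.97, 1.66 and 1.96, and in FL-KO 0.4, 0.855 and 1.67. The groups overlapped, with 2 of 6 FL-WT and 4 of 6 FL-KO mice below their ground group. On the log2(TPM + 1) scale its changes were the smallest of the set, -0.44 ± 0.20 in FL-WT vs. GC-WT (limma adjusted p = 0.0883, exact permutation p = 0.132) and -0.41 ± 0.20 for FL-KO vs. GC-KO (limma adjusted p = 0.0894, exact permutation p = 0.026). That scale shrinks changes at 1 to 2 TPM, and by plain means FL-WT was 0.558 of GC-WT for Gp6, against 0.601 for Pf4 and 0.618 for Ppbp.

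Vwf encodes von Willebrand factor, which megakaryocytes store in alpha-granules and endothelial cells in Weibel-Palade bodies. Its TPM was 2.86, 8.51 and 10.6 in GC-WT and 1.57, 3.58 and 4.8 in FL-WT, as lowest, median and highest. It was 4.13, 5.18 and 6.59 in GC-KO and 1.03, 2.35 and 4.54 in FL-KO. Both wild-type groups had mice at the lower end, whereas 5 of 6 FL-KO mice lay below every GC-KO mouse. Vwf had the most negative change of the members in FL-WT vs. GC-WT, -0.88 ± 0.25 (limma adjusted p = 0.0121, exact permutation p = 0.0931), and -0.84 ± 0.25 for FL-KO vs. GC-KO (limma adjusted p = 0.0103, exact permutation p = 0.00433).

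The next question was whether the change with flight differed between the genotypes. In the interaction of flight and genotype, 0 of 9 members passed in limma, and 0 of 9 had an unadjusted p under 0.05, beside 0.0162% and 3.46% of all genes. Among the members, Gp1bb and Ppbp had the widest gaps between their changes: the change in Nrf2 KO mice minus that in wild-type mice was -0.48 for Gp1bb (95% interval -1.34 to 0.38) and -0.37 for Ppbp (-1.34 to 0.61). For the other 7 members it lay between -0.23 and 0.04. The intervals include differences of more than 0.6 on the log2 scale in either direction for Ppbp, so that these data do not show that the genotypes changed alike.

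The genotype comparisons addressed the same genes without the flight as the variable. In GC-KO vs. GC-WT, 2 of 9 members fell, Itgb3 and Gp1ba, a smaller share than the 42.9% of all genes, and 0 of 9 fell at least 2-fold in limma, beside 3.04%. At an unadjusted p under 0.05 in limma, 2 of 9 were lower, beside 43.4% of all genes, and 0 passed by the exact test. Itgb3 changed by -0.54 ± 0.25 (limma adjusted p = 0.0928, exact permutation p = 0.132) and Gp1ba by -0.51 ± 0.23 (limma adjusted p = 0.0819, exact permutation p = 0.193). The groups overlapped for every member (0 of 9 apart, beside 9.15% of all genes), and the GC-KO mice lay inside the wide GC-WT range of Itgb3 and Gp1ba. The median of the members, -0.23, was close to that of all genes, -0.22. Pf4 had a log2 fold change of 0.00 ± 0.28, with group means of 41.2 and 41.1 TPM. With median-of-ratios scaling no member passed, and Ppbp, Itga2b, Gp9 and Gp6 took the opposite sign. Leaving out GC-WT mouse 05, 06, 07 or 08 or GC-KO mouse 01, 02, 04 or 11 left 0 members, and leaving out GC-WT mouse 10 gave 4.

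In FL-KO vs. FL-WT, 4 of 9 members fell, Itgb3, Gp1ba, Gp1bb and Gp9, a share near the 47.2% of all genes, and 0 of 9 fell at least 2-fold in limma, beside 8.36%. At an unadjusted p under 0.05 in limma, 4 of 9 were lower, a share near the 47.3% of all genes, and 1 passed by the exact test. Gp1bb had the most negative value, -0.86 ± 0.30 (limma adjusted p = 0.0201, exact permutation p = 0.026), followed by Itgb3 with -0.61 ± 0.25 (limma adjusted p = 0.0511, exact permutation p = 0.0411). For Gp1ba the value was -0.48 ± 0.23 (limma adjusted p = 0.0977) and for Gp9 -0.46 ± 0.21 (limma adjusted p = 0.0865). The ranges of both groups overlapped for all 9 members, beside 20.6% of genes that were lower without overlap. The members' median was -0.46, against -0.25 for all genes. Vwf, with -0.26 ± 0.25 (limma adjusted p = 0.438), turned to 0.03 with median-of-ratios scaling and to 0.58 with the GC and length trends removed, where limma gave an adjusted p of 0.0473 for a higher value in FL-KO. With median-of-ratios scaling 1 member passed, and the count was 1 without FL-WT mouse 07, 08 or 10 or FL-KO mouse 01, 2 without FL-WT mouse 06 or FL-KO mouse 02, 04, 11 or 12, and at most 6 without any other mouse. Without FL-WT mouse 03 or FL-KO mouse 09, 1 member was called at 2-fold.

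**Figure D3:**
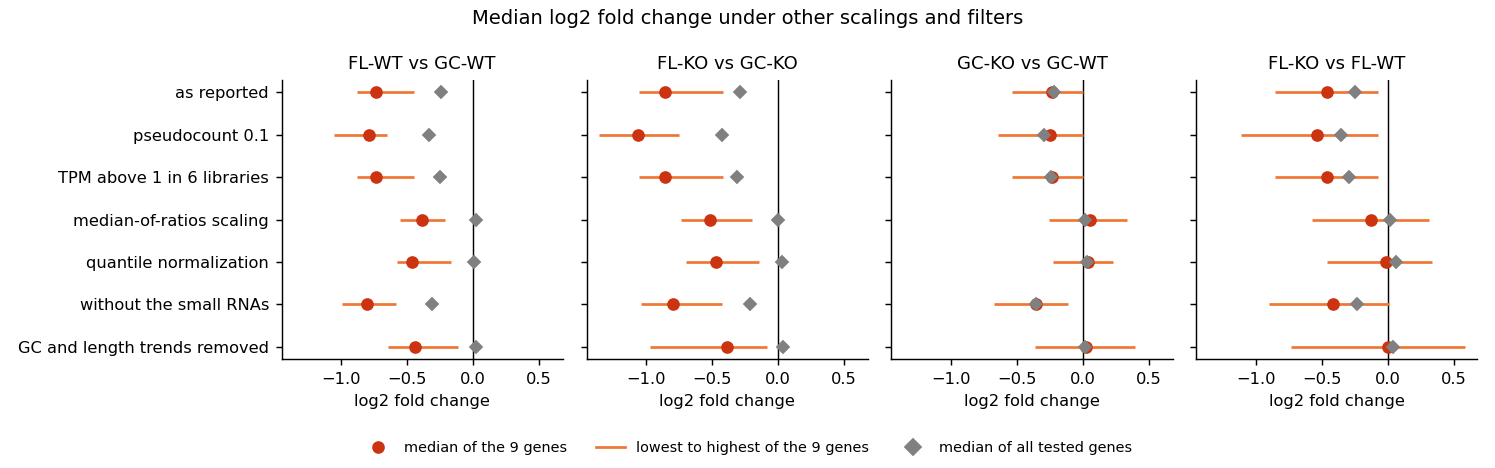
Median log2 fold change of the 9 members (circle), the range from the lowest to the highest member (line) and the median of all tested genes (diamond) as reported and under 6 other settings, for the 4 comparisons. The whole range stays below 0 in both flight comparisons in every setting shown, while in the genotype comparisons it crosses 0 under several.

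The members moved together from mouse to mouse. Averaged over the 9 genes on the log2(TPM + 1) scale and set against the GC-WT mean, the mice ranged from -0.86 to 0.69 in GC-WT, from -1.41 to -0.21 in FL-WT, from -0.60 to -0.06 in GC-KO and from -1.91 to -0.35 in FL-KO. FL-KO mouse 01 lay lowest of all mice and GC-WT mouse 06 highest. The highest FL-KO mouse, 09, was above GC-WT mice 03 and 10, which lay at -0.53 and -0.86. Over the 36 pairs of members the median Pearson correlation over 24 libraries was 0.911, from 0.784 for Pf4 and Gp1ba to 0.981 for Itga2b and Vwf. With the group means removed it was 0.882. The median of all genes with the members was 0.514, or 0.278 with group means removed. All values of 1 mouse share a library and its scale. These correlations are descriptions of these libraries.

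**Figure D4:**
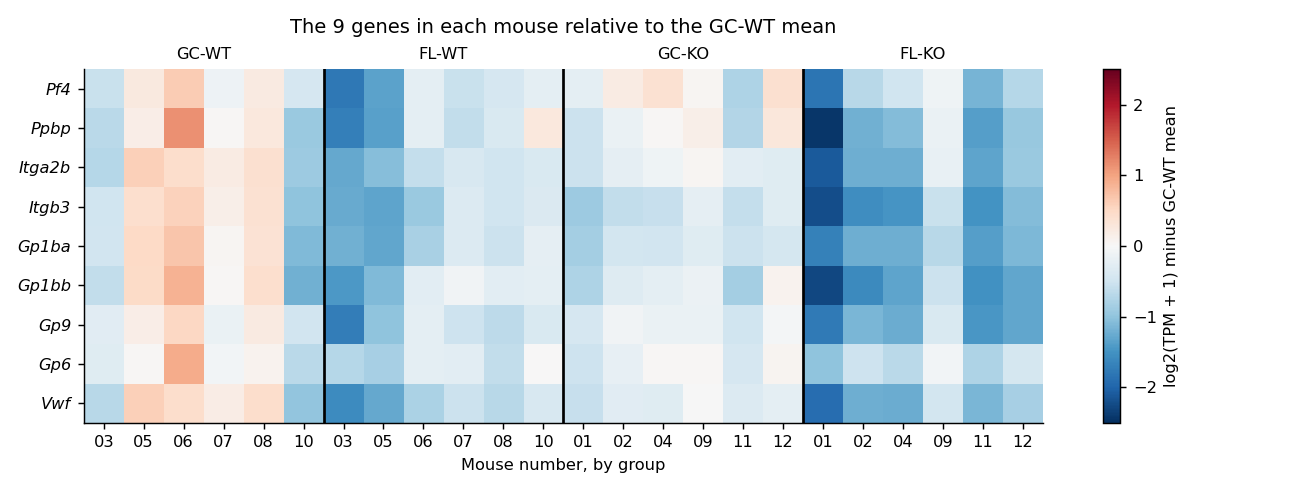
Heat map of each member (rows) in each mouse (columns, by group), coloured by log2(TPM + 1) minus the GC-WT mean of that gene, with blue for lower and red for higher values. The column of FL-KO mouse 01 is the darkest blue, that of GC-WT mouse 06 the reddest in 7 of 9 rows, and FL-KO mouse 09 is paler than the other FL-KO mice in every row.

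Other genes of the lineage were taken from 4 lists, of which 70 of 75 genes were tested. With flight, 31 of these 70 fell in wild-type mice, 1 of them at least 2-fold, and 50 fell in Nrf2 KO mice, 8 of them at least 2-fold, beside the shares of all genes given above (39.0% and 53.1% passed, 0.938% and 2.13% at 2-fold). The transcription factors had the lowest medians of the 4 lists: -0.45 and -0.67 in the wild-type and Nrf2 KO flight comparisons, or -0.20 and -0.38 relative to the median of all genes. With flight 1 of the 70 rose in either genotype. After median-of-ratios scaling 9 fell and 11 rose in wild-type mice, and 23 fell and 8 rose in Nrf2 KO mice. The median of the signalling and cytoskeleton list in FL-WT vs. GC-WT then turned from -0.32 to 0.01, and those of the other lists remained below 0.

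Among platelet receptors, 8 of 18 tested genes fell with flight in wild-type and 14 of 18 in Nrf2 KO mice, none at 2-fold. Of all genes, 39.0% and 53.1% fell, and 0.938% and 2.13% fell at least 2-fold. Gp5, the fourth glycoprotein around GPIb-IX, was named after its values were seen. Its flight changes were the most negative of this list in both genotypes, where the list medians were -0.34 and -0.40. Its mean was 5.83 ± 2.69 TPM (SD, n = 6) in GC-WT and 2.55 ± 1.05 in FL-WT, against 2.91 ± 0.632 in GC-KO and 1.15 ± 0.651 in FL-KO. It was lower in both flight comparisons, with changes of -0.88 ± 0.25 in wild-type (limma adjusted p = 0.0131) and -0.90 ± 0.25 in Nrf2 KO mice (limma adjusted p = 0.00755) on the log2 scale, of which the latter did not pass with GC and length trends removed (-0.42). The most abundant receptors were less specific ones: Fcer1g, the signalling chain of GPVI and of Fc receptors on myeloid cells, had means of 214 TPM in GC-WT and 218 in FL-WT, and the tetraspanin Cd9 had 49.99 and 51.8. With median-of-ratios scaling Cd9 passed as higher with flight in wild-type (0.39) and Nrf2 KO mice (0.42), and Fcer1g in wild-type mice (0.38). None of these passed with GC and length trends removed.

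Of 12 tested granule genes, 6 fell and 1 rose with flight in wild-type mice, and 8 fell and 1 rose in Nrf2 KO mice. Of all genes, 39.0% fell and 0.994% rose in wild-type mice, and 53.1% fell and 0.299% rose in Nrf2 KO mice. Srgn, the proteoglycan serglycin that holds Pf4 in granules and is also made by most blood cells, was the one that rose in both, from 166 to 235 TPM (0.49 ± 0.12, limma adjusted p = 0.00377) and from 156 to 193 TPM (0.32 ± 0.12, limma adjusted p = 0.0326). Tgfb1, a cytokine that platelets store, changed by -1.41 ± 0.24 with flight in Nrf2 KO mice (limma adjusted p = 0.000154) and by -1.30 ± 0.24 in GC-KO vs. GC-WT (limma adjusted p = 0.000455). F13a1, the A chain of factor XIII, which monocytes and macrophages also make, had means of 44.9 TPM in GC-WT and 42.6 in FL-WT, against 25.3 in GC-KO and 22.6 in FL-KO. With median-of-ratios scaling F13a1 passed as higher with flight, at 0.28 in wild-type and 0.32 in Nrf2 KO mice. Neither passed with GC and length trends removed. Nbeal2, which is needed for alpha-granules, fell at least 2-fold in both genotype comparisons (-1.17 ± 0.22 on the ground and -1.57 ± 0.22 after flight, limma adjusted p = 0.000478 and 3.77e-06). Its change was under 2-fold on the ground with median-of-ratios scaling (-0.86) and in both with GC and length trends removed (-0.43 and -0.64). Tgfb1 was then also under 2-fold on the ground, at -0.97 with the scaling and -0.92 with the trends removed.

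In the list of signalling and cytoskeleton genes, 7 of 24 fell with flight in wild-type mice, a smaller share than the 39.0% of all genes. In Nrf2 KO mice 17 of 24 fell with flight, beside 53.1% of all genes. In each genotype comparison 14 of 24 fell, beside 42.9% of all genes on the ground and 47.2% after flight. Tubb1, the beta-tubulin of the platelet marginal band and the most lineage-bound gene of this list, changed by -0.65 ± 0.25 in wild-type (limma adjusted p = 0.0481) and -0.70 ± 0.25 in Nrf2 KO mice (limma adjusted p = 0.0266). Neither passed with median-of-ratios scaling (-0.31 and -0.32) or with GC and length trends removed (-0.48 and -0.39). Zyx, Tln1 and Flna, which link integrins to actin in many cell types, were among the genes with the largest changes of the list. Zyx changed by -1.51 ± 0.27 in the genotype comparison on the ground and -2.57 ± 0.27 after flight (limma adjusted p = 0.000411 and 2.58e-07). Tln1 changed by -1.26 ± 0.24 and -1.93 ± 0.24 (limma adjusted p = 0.000537 and 1.45e-06), and Flna by -1.34 ± 0.25 and -1.90 ± 0.25 (limma adjusted p = 0.000454 and 2.08e-06). These 3 genes had larger genotype changes than any of the 9 members. Fermt3, kindlin-3, which activates alphaIIb-beta3, changed by -1.40 ± 0.19 in FL-KO vs. FL-WT (limma adjusted p = 2.46e-06), and Plcg2, which acts below GPVI, by -1.58 ± 0.24 (limma adjusted p = 1.03e-05). With GC and length trends removed, Zyx (-0.97), Tln1 (-0.57) and Flna (-0.71) were under 2-fold on the ground, and Fermt3 (-0.64) and Plcg2 (-0.87) after flight. Rap1b and Plek, the most abundant genes of the list that were not called, had means of 65.8 and 37.3 TPM in GC-WT and 65.6 and 31.1 in FL-KO. With median-of-ratios scaling both passed as higher with flight in wild-type and Nrf2 KO mice (Rap1b 0.37 and 0.37, Plek 0.27 and 0.22).

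Of 16 tested transcription factors, 10 fell with flight in wild-type and 11 in Nrf2 KO mice, beside 39.0% and 53.1% of all genes. In the genotype comparisons on the ground and after flight 14 and 15 fell, where 42.9% and 47.2% of all genes did. Zfpm1, which encodes FOG1, had means of 37.5 ± 12.1 TPM (SD, n = 6) in GC-WT and 16 ± 5.68 in FL-WT, against 18.2 ± 5.59 in GC-KO and 3.91 ± 0.994 in FL-KO. It fell more than 2-fold with flight in wild-type (-1.18 ± 0.21, limma adjusted p = 0.000429) and in Nrf2 KO mice (-1.94 ± 0.21, limma adjusted p = 8.3e-06), in the latter without overlap. With median-of-ratios scaling the change in wild-type mice was -0.81, and with GC and length trends removed -0.88, both under 2-fold, whereas that in Nrf2 KO mice stayed above it. Its partner Gata1 changed by -0.83 ± 0.17 and -1.15 ± 0.17 (limma adjusted p = 0.00124 and 3.58e-05). Gfi1b and Tal1, which act beside GATA1, changed by -1.22 ± 0.21 and -1.20 ± 0.18 in FL-KO vs. GC-KO (limma adjusted p = 0.000124 and 3.8e-05). All 4 of these factors act in the erythroid lineage too, so that the lineages cannot be told apart in their values. Under either of those settings Gata1, Gfi1b and Tal1 changed by less than 2-fold in FL-KO vs. GC-KO, from -0.73 for Tal1 with the trends removed to -0.88 for Gfi1b with the scaling. Srf, a regulator of cytoskeletal genes, changed by -1.51 ± 0.18 in FL-KO vs. FL-WT (limma adjusted p = 9.88e-07), or -0.65 with the trends removed. Nfe2, the large subunit of NF-E2, changed by -0.48 ± 0.16 and -0.65 ± 0.16 with flight (limma adjusted p = 0.0272 and 0.00315), and Fli1 had means of 25.7 TPM in GC-WT and 24.2 in FL-WT, against 18.7 in GC-KO and 16.5 in FL-KO. With median-of-ratios scaling Nfe2 had -0.10 in wild-type mice, which did not pass, and -0.20 in Nrf2 KO mice. Fli1 then passed as higher with flight, at 0.24 in wild-type and 0.27 in Nrf2 KO mice (limma adjusted p = 0.00723 and 0.00308). With the trends removed the Fli1 changes, 0.13 in either genotype, did not pass.

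**Figure D5:**
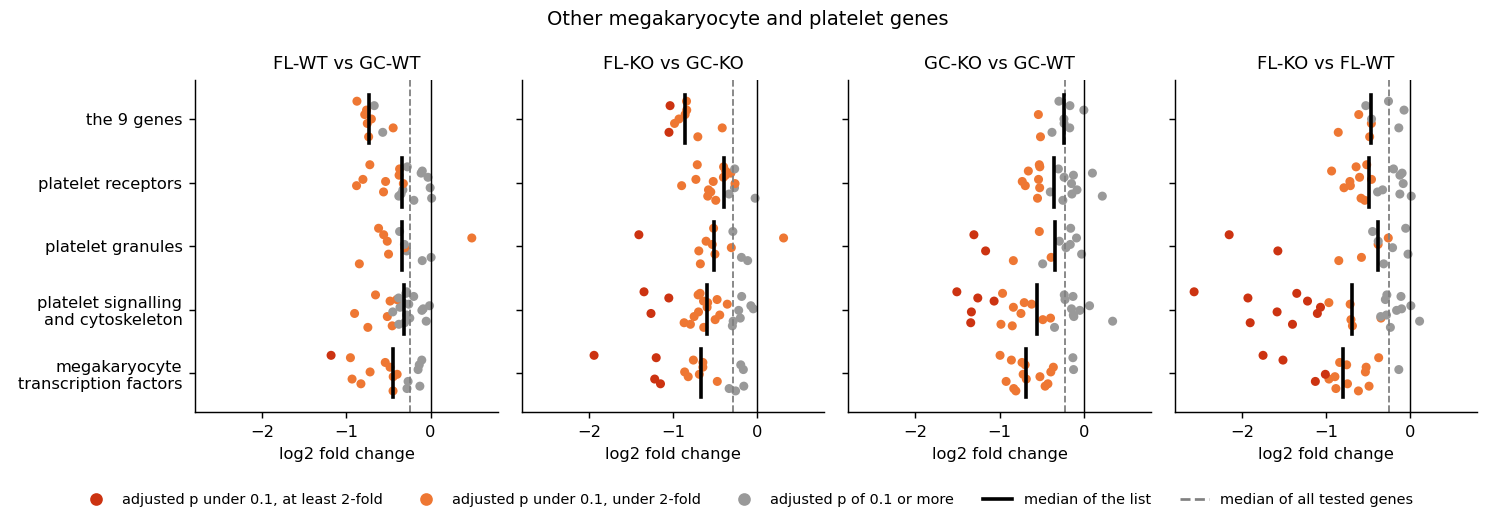
Log2 fold change of each tested gene (point) of the 9 members and the 4 lists in the 4 comparisons, coloured by whether it passed and reached 2-fold, with a bar at the list median and a dashed line at the median of all tested genes. In both flight comparisons the bar of the 9 members lies furthest below the dashed line, followed by that of the transcription factors.

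Several members are also made by other cells of the marrow, and markers of those cells were read beside them. The endothelial list was low, 5 of its 12 genes being tested, and its genes summed to 7.73 to 14.8 TPM in GC-WT and 4.3 to 8.57 in FL-WT, against 5.59 to 10.6 in GC-KO and 2.96 to 7.48 in FL-KO, with no marker at 0 throughout a group. Egfl7 and Eng were the most abundant. Of the 5 tested, 4 fell with flight in wild-type and 5 in Nrf2 KO mice, beside 39.0% and 53.1% of all genes. With median-of-ratios scaling 2 and 2 fell, and with GC and length trends removed the list's median in FL-KO vs. GC-KO turned from -0.41 to 0.06. These markers moved in the direction of Vwf, and their part in its values was not tested.

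Osteoclast markers, which bear on Itgb3, had 1 of 3 tested genes lower in each flight comparison (Acp5), beside 39.0% and 53.1% of all genes. They summed to 26.3 to 45.5 TPM in GC-WT and 19.3 to 29.5 in FL-WT, against 24 to 32.5 in GC-KO and 13.8 to 24.2 in FL-KO. Tissue macrophage markers, which bear on Pf4, had 4 of 10 lower with flight in wild-type and 8 of 10 in Nrf2 KO mice, beside the same shares. Their sums were 73.8 to 135, 63.3 to 114, 78.1 to 98 and 45.8 to 80.3 TPM in the same order of groups. With median-of-ratios scaling no osteoclast marker fell in either flight comparison, while 0 and 2 macrophage markers fell and 2 and 0 rose. The list medians then turned to 0.11 for osteoclast markers in FL-KO vs. GC-KO and to 0.07 for macrophage markers in FL-WT vs. GC-WT. No marker of either list was at 0 throughout a group, and their part in the results for Itgb3 and Pf4 was not tested.

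Erythroid genes share GATA1 and FOG1 with the members. At 2-fold, 8 of 14 fell with flight in each genotype, beside 0.938% of all genes in wild-type and 2.13% in Nrf2 KO mice. The summed TPM of the list, which is nearly all globin, ranged from 87120 to 204000 in GC-WT and 144900 to 207000 in FL-WT. In Nrf2 KO mice it ranged from 166100 to 245000 in GC-KO and 152900 to 222600 in FL-KO. The erythroid genes that fell at 2-fold numbered 2 and 3 under median-of-ratios scaling. Basophil and mast cell markers had 0 of 6 lower in either flight comparison by limma, beside 39.0% and 53.1% of all genes. At an unadjusted p under 0.05 in limma 0 were lower, beside 41.7% and 52.2%. With median-of-ratios scaling 4 of 6 and 5 of 6 were higher. They summed to 99.1 to 144 TPM in GC-WT and 97.5 to 165 in FL-WT, against 65 to 112 in GC-KO and 66.3 to 102 in FL-KO, and Tpsb2 was listed at 0 throughout both ground groups. Stem and progenitor markers had 1 of 6 lower in each flight comparison, beside 39.0% and 53.1% of all genes, though 1 and 2 of 6 were higher with median-of-ratios scaling. Their sums were 32.8 to 53, 29.4 to 55.5, 36.4 to 47.2 and 31.5 to 43.5 TPM. The part of these cells in the members' values was not tested.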

How the data were processed

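Bone marrow RNA of 24 mice was analysed as a library per mouse, in 4 groups of 6 taken from the labels. The authors extracted RNA from cryopreserved cells with ISOGEN-LS, made strand-specific libraries (MGIEasy RNA Directional) and read them on a DNBSEQ-G400. The submitters' processing notes name STAR 2.6.1, RSEM 1.3.1, mm10 and GRCm38, and the study estimated TPM with RSEM. The deposited table holds TPM for 54752 genes, 54723 of them matched to GENCODE M21, and 26504 at 0 in every library. Read counts and depth are not used here, since TPM keeps neither.

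Values were taken as log2(TPM + 1) for 12373 genes with TPM above 1 in at least 1 library and fitted with limma 3.58.1 (R 4.3.3), a mean per group over all 24 libraries, with Benjamini-Hochberg adjustment over these genes. A gene passed at an adjusted p under 0.1, and was called when it also changed at least 2-fold. Members were also tested with exact two-sided permutation tests of the rank sum (924 splits, smallest p 0.00216), adjusted over 36 tests. Nothing in the labels pairs mice of the same number beyond the number. Other steps ran in Python 3.11.15 with scipy 1.17.1, pandas 2.3.3, numpy 2.4.6 and, for plots, matplotlib 3.10.9, and the tests were tried on simulated data.

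The 9 members and all gene lists were chosen with earlier results of these data known. Named were all members, Nfe2l2, per list the 5 or fewer called genes of largest change whose mean was 5 TPM or more, the 2 most abundant not called, the 2 most abundant markers of each other cell type and the 10 genes that correlated best with the members. Tubb1, which the correlation rule named, is also given with its list. Gp5 lies outside these rules and was named after its values were seen. As alternatives, 0.1 was added in place of 1, the filter was dropped or set at 6 libraries, values were rescaled by median-of-ratios, by quantile normalization or without small RNAs, GC content and length trends were removed, limma was run with a mean-expression trend, with only the groups compared or with mouse number as block, the adjusted p was set at 0.05, the minimum fold was dropped, and single libraries were left out. Promoter sequences came from RefSeq.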

Additional observations from a re-analysis of the deposited data

Results flagged for a closer look

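In groups of 6 mice, a highest or lowest value was singled out when its gap to the nearest mouse, divided by the range of the group, exceeded Dixon's 95% critical value. Of 36 groups of member values, 2 met this, and chance alone singles out about 1 in 20 groups. Gp9 in FL-KO mouse 09, the highest of its group at 9.12 TPM, had a gap of 0.665 of the range. Gp6 in GC-WT mouse 06, also the highest of its group at 4.36 TPM, had a gap of 0.656 of the range. The same mice were highest in 9 and 7 of the 9 members of their groups. No explanation was tested.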

How the results depend on the processing

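All 9 members were lower after flight in both genotypes under every setting tried, with any 1 library left out as well. Only TPM was at hand, so the depth behind low members such as Gp1ba and Gp6 is unknown. Relative to the median of all genes the members' median was between -0.41 and -0.49 with flight in wild-type mice and between -0.42 and -0.59 in Nrf2 KO mice under the main setting and the 4 scalings. Outside the interaction, counts of called and passing genes in this section are of genes that were lower, unless given as higher. Taking first the flight comparisons in wild-type and in Nrf2 KO mice, then the genotype comparisons on the ground and after flight, the members called at 2-fold were 0, 2, 0 and 0, and those that passed at any size 7, 9, 2 and 4. A pseudocount of 0.1 gave 2, 6, 0 and 1 called members and 0 passing in GC-KO vs. GC-WT, with 7 and 11 other lineage genes called in FL-WT vs. GC-WT and between the ground groups in place of 1 and 7. With no filter 4, 8, 0 and 1 members passed. Median-of-ratios scaling gave no called member and 2, 6, 0 and 1 passing, with 0, 2, 3 and 9 other genes called and 9 and 23 passing in the flight comparisons. Another 11 and 8 other genes passed as higher with flight. Quantile normalization gave no called member and 1, 3, 0 and 0 passing, with 0, 2 and 8 other genes called in the first, the second and the last of these and 11 and 20 passing with flight. In this setting 5 and 8 other genes passed as higher with flight. Without the small RNAs 1 member was called in FL-KO vs. GC-KO and 2 passed in FL-KO vs. FL-WT. In that setting 3, 7, 14 and 15 other genes were called in the 4 comparisons, in the order above. With GC content and length trends removed no member was called and 2, 3, 0 and 1 passed, while Vwf passed as higher in FL-KO vs. FL-WT. Other genes called were 0, 2, 0 and 4, and 12, 15 and 25 passed in the first 3 comparisons. In those 3, another 9, 6 and 5 passed as higher. Fits of the compared groups alone left 1 member passing in GC-KO vs. GC-WT and 19 other genes in FL-WT vs. GC-WT. At an adjusted p under 0.05, 0 and 1 members passed in the genotype comparisons. With no minimum fold change 7, 9, 2 and 4 members and 31, 50, 41 and 45 other genes were called. No member was called in the interaction under any setting. Shares of all genes that were called or passed are given for the main setting alone. The causes of these changes were not tested.

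Signs of members turned in the genotype comparisons and in the interaction, not in the flight comparisons. In GC-KO vs. GC-WT, median-of-ratios scaling gave log2 fold changes of 0.17 for Ppbp, 0.082 for Itga2b, 0.082 for Gp9 and 0.052 for Gp6, quantile normalization 0.087 for Itga2b, 0.11 for Gp9, 0.068 for Gp6 and 0.044 for Vwf, leaving out the small RNAs -0.11 for Pf4, and removing GC content and length trends 0.35 for Itga2b, 0.0014 for Itgb3, 0.090 for Gp1bb, 0.0028 for Gp9, 0.070 for Gp6 and 0.40 for Vwf. In FL-KO vs. FL-WT, median-of-ratios scaling gave 0.32 for Pf4, 0.064 for Gp6 and 0.034 for Vwf, quantile normalization 0.34 for Pf4, 0.091 for Gp6 and 0.15 for Vwf, leaving out the small RNAs 0.011 for Pf4, and removing GC content and length trends 0.35 for Itga2b, 0.023 for Itgb3, 0.0050 for Gp1ba, 0.11 for Gp6 and 0.58 for Vwf. Leaving out 1 library moved Pf4 between -0.11 and 0.16, Ppbp between -0.35 and 0.066 and Gp6 between -0.30 and 0.021 in GC-KO vs. GC-WT, and Pf4 between -0.28 and 0.12 in FL-KO vs. FL-WT. In the interaction, where no member passed, a pseudocount of 0.1 gave -0.22 for Gp1ba, -0.047 for Gp6 and -0.033 for Vwf, median-of-ratios scaling -0.025 for Gp1ba, quantile normalization 0.11 for Pf4, 0.039 for Itgb3 and -0.0026 for Gp1ba, leaving out the small RNAs 0.12 for Pf4 and 0.085 for Itgb3, and removing GC content and length trends 0.0021 for Itga2b and 0.021 for Itgb3. Leaving out 1 library moved it for Pf4 between -0.28 and 0.12, Itgb3 between -0.24 and 0.13, Gp1ba between -0.11 and 0.25, Gp6 between -0.16 and 0.16 and Vwf between -0.10 and 0.23.

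Over all single libraries left out, called members ranged from 0 to 1 in wild-type and from 0 to 5 in Nrf2 KO mice with flight, from 0 to 0 between genotypes on the ground and from 0 to 1 between genotypes after flight, and passing members from 4 to 9, 8 to 9, 0 to 4 and 1 to 6. Other lineage genes called ranged from 1 to 5 (5 without GC-WT mouse 10, 4 without FL-WT mouse 07, 3 without GC-WT mouse 05 and 2 without FL-WT mouse 08), 7 to 9, 6 to 11 (11 without GC-WT mouse 10 or GC-KO mouse 11) and 13 to 18, and those passing from 16 to 49 (16 without FL-WT mouse 05, 18 without GC-WT mouse 06, 20 without GC-WT mouse 08 and 49 without FL-WT mouse 07), 42 to 52, 35 to 47 and 40 to 52. With the mouse number as a replicate block, 9 and 9 members passed in the flight comparisons and 45 and 56 other genes, and called members stayed at 0 and 2. Same-numbered ground and flight mice correlated at -0.026 to 0.273 in their deviations from group means, and not each mouse correlated best with its own number, so the numbers were not taken as pairs.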

Other observations

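The genes whose levels went most closely with the 9 members over the mice were named by rank, and no shared theme was tested among them. Among the 5019 genes whose mean reached 5 TPM, Tubb1 of the platelet marginal band had the highest mean Pearson correlation with the members over 24 libraries, 0.918, and Cxcl12, the chemokine by which stromal cells hold blood cells in the marrow, the next, 0.909. Myl9 (0.908) and Serpine2 (0.884), both known from platelets, followed, and then Igtp (0.883), Vcam1 (0.881), Tsc22d1 (0.862), Gpx3 (0.837), Clic4 (0.835) and Axl (0.828). With group means removed, 8 of these 10 were again among the 10 highest, with Cxcl12 at 0.879 and Vcam1 at 0.846, and Clec1b (0.815) and Cd151 (0.78) took the remaining places. All libraries share their scale between genes, and the correlations are descriptions with no test.

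Cxcl12 ranged from 26.5 to 63.6 TPM in GC-WT and from 14.4 to 44.5 in FL-WT. In Nrf2 KO mice it ranged from 30.5 to 55.5 in GC-KO and from 10.9 to 44.7 in FL-KO. It fell with flight, with log2 fold changes of -0.61 ± 0.27 in wild-type mice (limma adjusted p = 0.0867) and -0.97 ± 0.27 in Nrf2 KO mice (limma adjusted p = 0.00715), on the log2(TPM + 1) scale. Neither change passed with median-of-ratios scaling, quantile normalization or GC and length trends removed. Vcam1, an adhesion molecule of stroma and resident macrophages, had means of 21 ± 5.72 TPM (SD, n = 6) in GC-WT and 16.7 ± 3.64 in FL-WT, against 16.9 ± 1.54 in GC-KO and 11.8 ± 2.94 in FL-KO. The groups overlapped for both genes.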
